A study of Xiphophorus maculatus x Xiphophorus hellerii with 32 samples.

Results

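The subject was a set of 100 transcripts whose levels followed those of the receptor tyrosine kinase Xmrk from skin to skin in melanoma-bearing hybrid fish. They were chosen from 11872 rows with an ENSXMAT transcript identifier and a mean of at least 5 CPM (the count divided by the sum of the library's column and multiplied by 1000000) over 16 skins. For each row the Spearman rho of its CPM with the Xmrk CPM was taken over those 16 skins, and the 100 highest values were kept. The skin levels of the members, and their correlations with Xmrk in skin, are therefore given as a description. The table held 20499 rows, of which 20469 carried an ENSXMAT identifier and 30 a gene symbol. It paired no member with a gene name, so the members are called by their identifiers and no function is given for them.

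Xmrk is a mutated duplicate of the gene for the epidermal growth factor receptor and is active without ligand. In X. maculatus its activity in pigment cells is held in check by a separate regulator locus, and backcrossing to X. hellerii lets some offspring inherit Xmrk without that regulator. Such fish carry patches of dark pigment cells in the skin and can develop melanoma, so Xmrk transcript can be present in skin outside a tumor as well as in the tumor.

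All libraries came from first backcross (BC1) hybrids between X. maculatus and X. hellerii, bred in a Gordan-Kosswig cross (spelled as in the labels) and dissected with melanoma at 9 months of age. The 16 skin and 16 spontaneous melanoma libraries differed in tissue, and no healthy or Xmrk-free fish were among them. Titles begin with a number that the labels do not explain. The skins comprised 3 from 11935, 8 from 11949, 2 from 11960 and 3 from 11963, and the tumors 3, 8, 1 and 3, plus 1 tumor whose column name matched no title. For 14 fish both tissues were sequenced, and the letters after the number name the fish. The total count per skin library was 4239036 to 6673975, and per tumor library 2578877 to 6977222. In bulk tissue, fewer cells of a type and less RNA per cell cannot be told apart. None of the usual markers of pigment cells, keratinocytes or other skin cells stood under a name in the table, so the makeup of the tissues was not tested.

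Xmrk itself set the scale. Its lowest skin level was 19.0 CPM in fish 11949l, the median was 63.4 CPM and the highest was 119 CPM in 11963a (mean 64.3 ± 26.7, SD, n = 16). The skins thus spanned 6.27-fold on 105 to 771 Xmrk counts. In tumors the lowest level was 139 CPM in 11935d, the median 573 CPM and the highest 1343 CPM in 11949h (580 ± 282, SD, n = 16), a span of 9.63-fold. No tumor was as low as the highest skin. Xmrk was 8.11-fold higher in tumor (log2 fold change 3.02, SE 0.24, adjusted p = 1.55e-11 in edgeR's quasi-likelihood test with Benjamini-Hochberg adjustment), and it was higher in 14 of 14 fish with both tissues. That fit did not pair the tissues by fish. With the fish as a replicate block the log2 fold change of Xmrk was 2.93 (adjusted p = 3.72e-07 in edgeR). A fish with much Xmrk in its skin did not have detectably more in its tumor. Over the 14 fish rho was 0.0989 (permutation p = 0.738, two-sided) and Pearson's r of log2 CPM was -0.0434 (p = 0.882), or -0.0880 without the 2 fish farthest from the median in skin.

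In skin the members moved as 1 block. Their rho with Xmrk ran from 0.859 to 0.997 with a median of 0.894, against a median of 0.106 over all 11872 rows. Only 2 rows had a negative rho as far from 0 as that of the last member. At the boundary, 6 rows tied at 0.859. The 100th place went to ENSXMAT00000003466 (mean skin level 5.92 CPM) by its place in the table, and 5 tied rows were left out, the first of them ENSXMAT00000003944 (523 CPM). The value above the tie was 0.862 and the one below was 0.856. Within the 8 skins of 11949 the members' rho had a median of 0.845 (0.167 over all rows), and within the other 8 skins 0.905 (0.0238 over all rows). The lowest member values there were 0.548 and 0.667. Both sets of 8 are part of the skins used to choose the members, so these values are not independent of that choice.

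The fish at the ends of the Xmrk range were also at the ends of the members' range. The skin of 11949l was the lowest of the 16 for 70 of the 100 members, and the skin of 11963a was the highest for 59. Next came 11960a, the highest for 18 members, and 11949g, the lowest for 14. Setting aside 2 members described next, the median deviation of the remaining 98 from their skin means, on the log2(CPM + 1) scale, was -1.25 in 11949l and 1.17 in 11963a. Low and high skins were found within a title number: in 11963 the skin of 11963g stood at -0.53 with 47.4 CPM of Xmrk, below 11963a and 11963d (1.17 and 0.86). The rho of this median deviation with Xmrk in skin was 0.979, a value fixed by the choice of members. With library measures the Spearman correlation was 0.276 for the total count, -0.0824 for the share of counts in the 10 most abundant rows, -0.453 for that in the 100 most abundant and 0.168 for the number of rows at 10 counts or more. The share in the 100 most abundant rows was itself highest in the skin of 11949l (42.6%) and lowest in that of 11963a (29.0%). Its rho with Xmrk in skin was -0.438 (permutation test, p = 0.0912, adjusted p = 0.253). The part of these measures in the result was not tested.

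Members 1 and 2 by rho, ENSXMAT00000008846 and ENSXMAT00000008852, stood apart from the other 98. In skin ENSXMAT00000008846 ran from 13.8 through a median of 41.5 to 80.9 CPM, and ENSXMAT00000008852 from 13.9 through 41.8 to 82.6 CPM. In tumor the first ran from 81.4 (11935d) through 286 to 662 CPM (11949h), and the second from 82.4 through 302 to 694 CPM. The ends of these ranges fell in the same libraries as those of Xmrk in both tissues, and the lowest tumor of each lay close to its highest skin. The counts of the first equalled 62.3% to 72.4% of the Xmrk count in skin (median 67.4%) and 45.1% to 58.4% in tumor (median 50.0%). Those of the second equalled 63.1% to 73.3% and 47.3% to 59.8%. The percentages of skin and tumor did not overlap for either. Over all 32 libraries each had a Pearson's r with Xmrk of 0.999, and the highest value of any other member was 0.942. The r between them was 0.99994, and their identifier numbers lie 6 apart. How reads matching more than 1 row were counted is not known here, so whether these rows share reads with Xmrk was not tested, and their counts are uncertain to that extent.

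**Figure D1:**
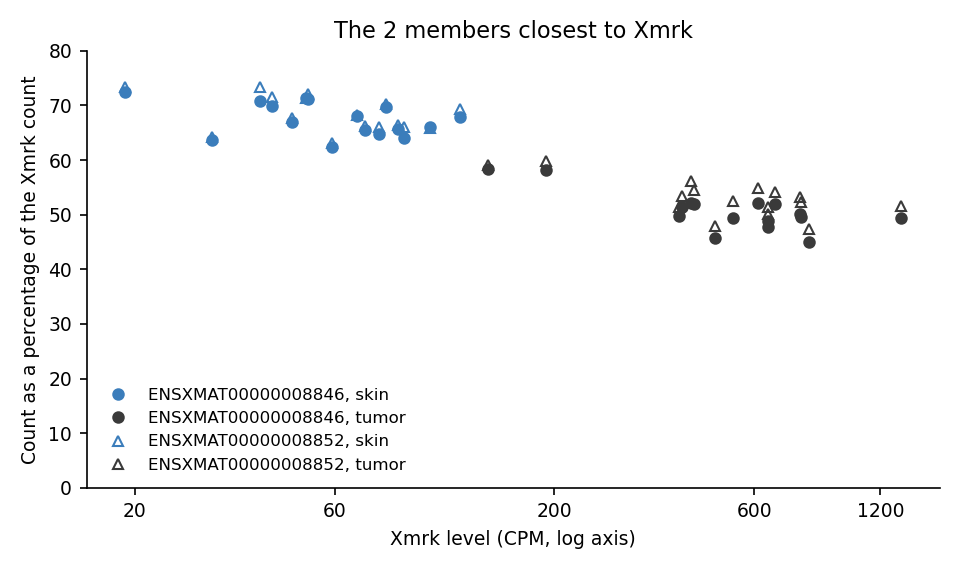
Counts of ENSXMAT00000008846 (filled circles) and ENSXMAT00000008852 (open symbols) as a percentage of the Xmrk count (y axis) against the Xmrk level in CPM (x axis, log) in 16 skins and 16 tumors. The points lie at 62.3% to 73.3% in skin and lower, at 45.1% to 59.8%, in tumor. Among tumors the highest percentages were those of 11935d (58.4% and 59.1%) and 11935e (58.1% and 59.8%), the tumors lowest in Xmrk.

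The other 98 members covered a wide range of levels. For all 100, mean skin levels ran from 5.08 to 776 CPM with a median of 33.2 CPM, and the lowest single skin count was 4. From the lowest to the highest skin the 98 spanned 2.49-fold to 67.2-fold, with a median of 6.99-fold, close to the 6.27-fold of Xmrk. Rows chosen for a high rho with Xmrk over the same skins must also correlate with each other. Over 4753 pairs the rho in skin ran from 0.562 to 0.994 with a median of 0.832, against 0.0675 over all pairs of the 11872 rows.

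Some of them were near copies of each other. ENSXMAT00000005704 and ENSXMAT00000005705, among the 5 most abundant members, had an r of 0.996 over 32 libraries, and their identifier numbers are neighbours. The former ran from 112 CPM in the skin of 11949l through 242 to 1006 CPM in that of 11963a, the latter from 95.7 through 197 to 889 CPM. ENSXMAT00000002753 and ENSXMAT00000002744 had an r of 0.995 with numbers 9 apart. ENSXMAT00000010759, the most abundant member (466.5 to 1305 CPM in skin), had an r of 0.986 with ENSXMAT00000003940 (289 to 940 CPM), whose number is far from its own. Whether such pairs are isoforms, overlapping transcripts or separate genes was not tested, and reads could be divided between them, so the 100 members are fewer than 100 independent signals.

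Of the members at ranks 3 to 10 by rho, ENSXMAT00000003794 varied most. It stood at 3.77 CPM in the lowest skin (11935f), 15.5 CPM at the median and 55.8 CPM in 11963a, and at 8.76, 26.3 and 102 CPM in tumors, with 11949c highest. ENSXMAT00000005533 varied least of the 8 in skin, with 95.9, 141 and 271 CPM in skin (lowest, median, highest) and 118, 208 and 431 CPM in tumor. For both, the tumor range began inside the skin range and reached above it. ENSXMAT00000019879, with the highest rho of the 98 (0.965), had 118, 195 and 373 CPM in skin and 147, 276 and 518 CPM in tumor. The 2 ranges again overlapped over most of their length. ENSXMAT00000010832 lay at 17.9, 45.9 and 111 CPM in skin and 21.4, 73.6 and 124 CPM in tumor. ENSXMAT00000007962 lay at 31.1, 76.5 and 215 CPM in skin and 53.4, 140 and 289 CPM in tumor. In each of these 2 the tumor median lay inside the range of the skins. ENSXMAT00000004632 was lower, at 5.79, 10.5 and 22.3 CPM in skin and 8.43, 12.8 and 30.0 CPM in tumor. ENSXMAT00000017539 had 23.9, 97.5 and 180 CPM in skin and 34.95, 139 and 302 CPM in tumor. ENSXMAT00000004839 had 17.9, 39.8 and 96.4 CPM in skin and 27.8, 66.7 and 119 CPM in tumor. All 3 again overlapped between the tissues.

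**Figure D2:**
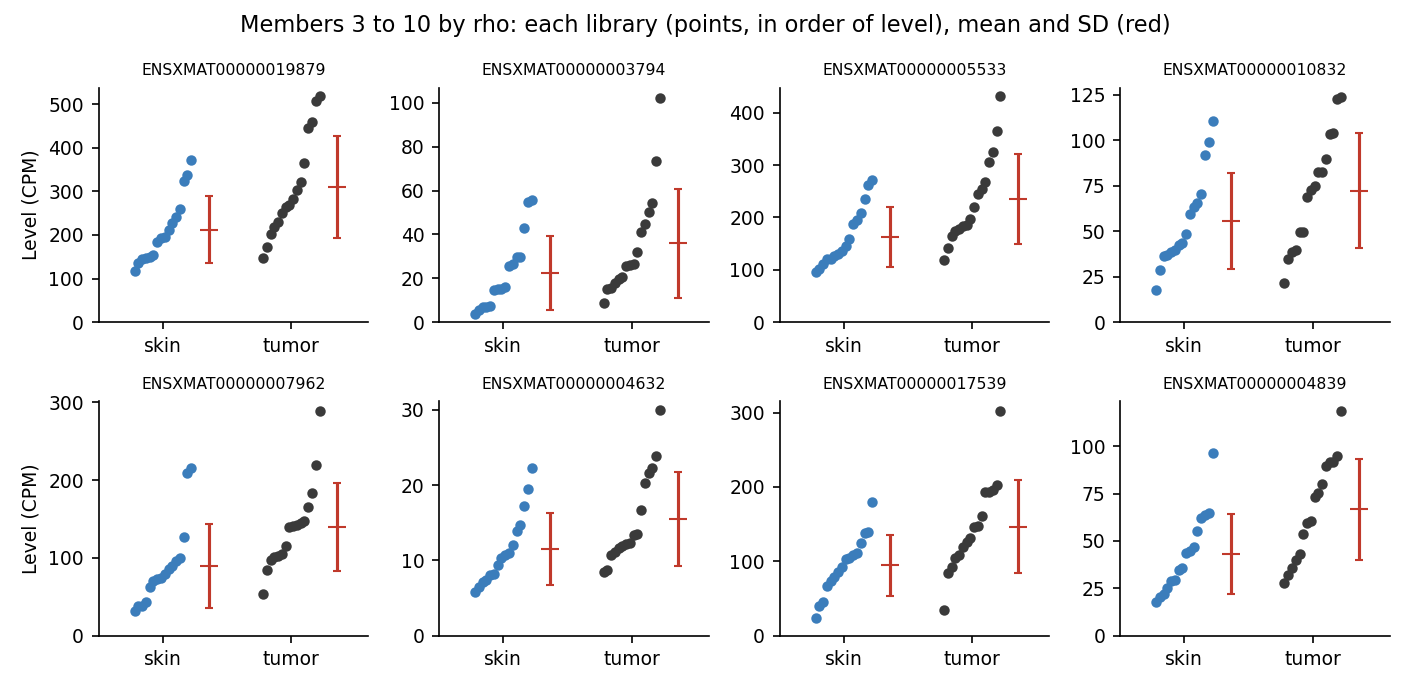
Level in CPM (y axis) of the members at ranks 3 to 10 by rho in each of 16 skins and 16 tumors, with the points in order of level and the mean and SD in red. Skin and tumor ranges overlap in all 8 panels, as for ENSXMAT00000019879 at 118 to 373 CPM in skin and 147 to 518 CPM in tumor.

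In the comparison of tumor with skin, most members did not pass without pairing by fish, and most passed with it. Without pairing, 20 of the 100 passed edgeR's quasi-likelihood test as higher in tumor, 1 as lower, and 79 did not pass. The background was 11.2% higher and 12.3% lower among the 14542 rows tested, and 9.84% and 13.8% among the 11825 of them with a mean skin level of at least 5 CPM. The median log2 fold change of the members was 0.47 (1.38-fold), with 95 of 100 above 0. The same median over the 11825 rows was 0.0079, with 5987 above 0. Scaling touches so small a shift: with column sums in place of edgeR's TMM factors the median log2 ratio of all tested rows moved from 0.04 to 0.18. All 16 skins and 16 tumors entered that fit, although most fish gave both tissues. With the fish as a replicate block over the 14 pairs, 59 members were higher and 1 lower, against a background of 23.3% and 22.9% of all tested rows (22.1% and 25.8% of those at 5 CPM or more). All 21 calls were among these 60, and each of the 39 added calls was higher in tumor, by a log2 fold change of 0.27 to 1.18. By fish, 27 members were higher in the tumor in 14 of 14 pairs, against 9.61% of all tested rows and 9.48% of those at 5 CPM or more.

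ENSXMAT00000008852 and ENSXMAT00000008846 had the largest differences, and they were the only members beyond 4-fold. Their log2 fold changes were 2.64 (SE 0.23, adjusted p = 9.30e-11 in edgeR) and 2.59 (SE 0.23, adjusted p = 1.11e-10 in edgeR), below the 3.02 of Xmrk, and both were higher in 14 of 14 pairs. With the fish as block their estimates were 2.57 and 2.52 (adjusted p = 8.89e-07 and 9.02e-07 in edgeR). Next was ENSXMAT00000007047, ranked 58th by rho. Its skins ranged from 3.98 to 23.4 CPM around a median of 8.96 CPM, and its tumors from 17.1 to 59.6 CPM around 47.6 CPM, so that the highest skins reached into the lower end of the tumors. Its log2 fold change was 1.76 (SE 0.21, adjusted p = 4.74e-08 in edgeR), with 14 of 14 pairs higher.

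ENSXMAT00000014450 had 34.7, 63.4 and 116 CPM in its lowest, median and highest skin, and 99.7, 189 and 263 CPM in the tumors. Its log2 fold change was 1.19 (SE 0.18, adjusted p = 3.76e-06 in edgeR), and it was higher in 14 of 14 pairs. ENSXMAT00000012551 had 27.2, 44.7 and 154 CPM in skin and 57.4, 173 and 276 CPM in tumor, with a log2 fold change of 1.19 (SE 0.26, adjusted p = 6.62e-04 in edgeR) and 14 of 14 pairs higher. Both had tumor medians above the highest skin. The other 15 members called higher had log2 fold changes of 0.48 to 1.14. Of the 20 called higher, 17 were higher in every pair, and the fewest pairs for any was 12 of 14.

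ENSXMAT00000020456 was the only member called lower. Its lowest, median and highest skins had 34.9, 65.2 and 110 CPM and its tumors 26.3, 58.9 and 86.0 CPM, and the ranges overlapped widely. Its log2 fold change was -0.45 (SE 0.15, adjusted p = 0.0260 in edgeR, and 0.00126 with the fish as block), with the tumor higher in 4 of 14 pairs. Only 4 further members had a negative estimate, and none of those passed. None of the 5 most abundant members passed without the block: ENSXMAT00000000213 had a log2 fold change of 0.05 (SE 0.22, adjusted p = 0.903 in edgeR) and ENSXMAT00000010759 one of 0.30 (SE 0.15, adjusted p = 0.149). With the fish as block, 3 of the 5 passed as higher: ENSXMAT00000003940 (adjusted p = 0.0237 in edgeR), ENSXMAT00000005704 (0.00365) and ENSXMAT00000005705 (0.00375). ENSXMAT00000003466, the member in 100th place, had 0.98 (SE 0.38, adjusted p = 0.0597), and 14 of 14 pairs higher. With the block its adjusted p was 1.31e-04.

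**Figure D3:**
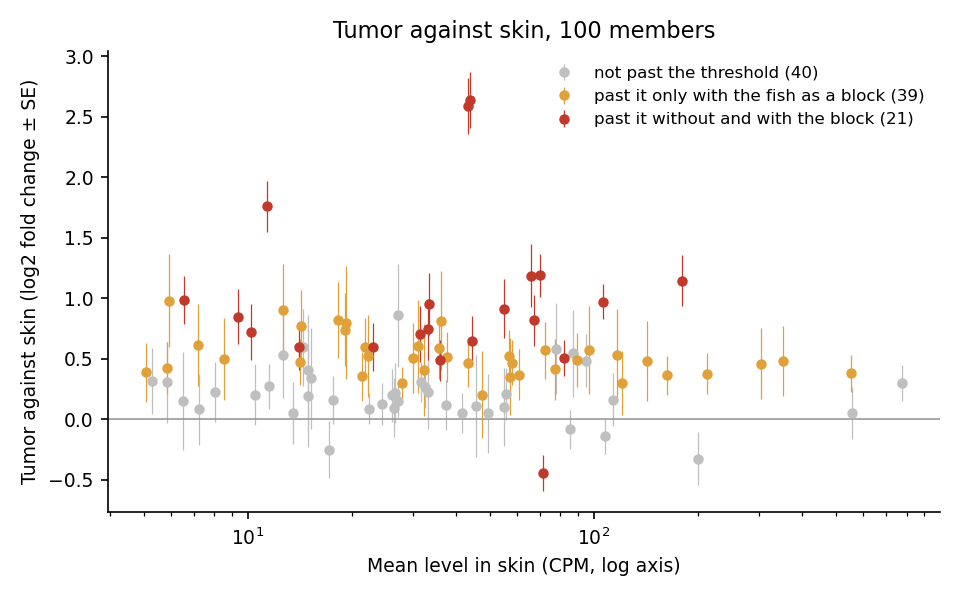
Log2 fold change of tumor against skin with its SE (y axis) for each of the 100 members against its mean skin level in CPM (x axis, log), coloured by call in edgeR. Of these, 21 were called without and with the fish as a block (20 higher, 1 lower), 39 only with the block, and 40 in neither fit. The estimates, from the fit without the block, centre on 0.47 with 2 members above 2.5.

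Members made up 0.842% of the 11872 rows they were chosen from, so few or none of them would fall among small groups of rows. Of 121 rows at least 8-fold higher in tumor, 41 had a mean skin level of at least 5 CPM, and none was a member. The rho of those 41 with Xmrk in skin ran from -0.712 to 0.638 with a median of 0.229. None of 68 rows at least 8-fold lower was a member either, and 67 of those were at 5 CPM or more in skin.

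Among tumors, none of the 98 members passed edgeR's test of a slope on Xmrk. The fit of each tumor count on log2 Xmrk CPM gave a positive slope past the threshold for 2 members, ENSXMAT00000008846 and ENSXMAT00000008852, and a negative one for none. The background was 0.183% positive and 0.0190% negative among 15823 rows tested (0.169% and 0.0169% of the 11825 at 5 CPM or more). At so low a background few or none of any 98 rows would pass, so the lack of calls does not set the 98 apart. Of the other 98, 7 had an unadjusted p under 0.05 in edgeR, against 9.73% of all tested rows, and 4 of the 7 were positive. DESeq2 called 1 of the 98 positive and 1 negative, against a background of 2.47% and 0.173% of 16743 rows (2.16% and 0.194% of those at 5 CPM or more). The median slope of the 98 was -0.03 on the log2 scale per doubling of Xmrk, with 39 above 0, and the median over the 11825 rows was -0.02. Spearman's rho of the 98 ran from -0.538 to 0.653 with a median of 0.100, beside 0.0765 over the 11825 rows. Within the 8 tumors of 11949 their median was 0.0476, and in the other 8 it was 0.0714.

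The rank of tumors by member level had little relation to their rank by Xmrk. Their median deviation from the skin means, in log2, was lowest in the tumor of 11949l (-0.37) and highest in that of 11949c (1.49). The former tumor had 424 CPM of Xmrk and the latter 396 CPM, a near tie. The tumor of 11949h, with 1343 CPM the highest in Xmrk, stood at 0.15, and that of 11935d, the lowest in Xmrk with 139 CPM, at 0.59. The rho of the median deviation with Xmrk was fixed by the choice of members in the 16 skins, at 0.979. Over the 16 tumors this rho was 0.0618. It was 0.0952 over the 8 tumors of 11949. With the share of counts in the 100 most abundant rows it was -0.485 in tumor and with the total count -0.321. What these measures contribute was not tested.

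**Figure D4:**
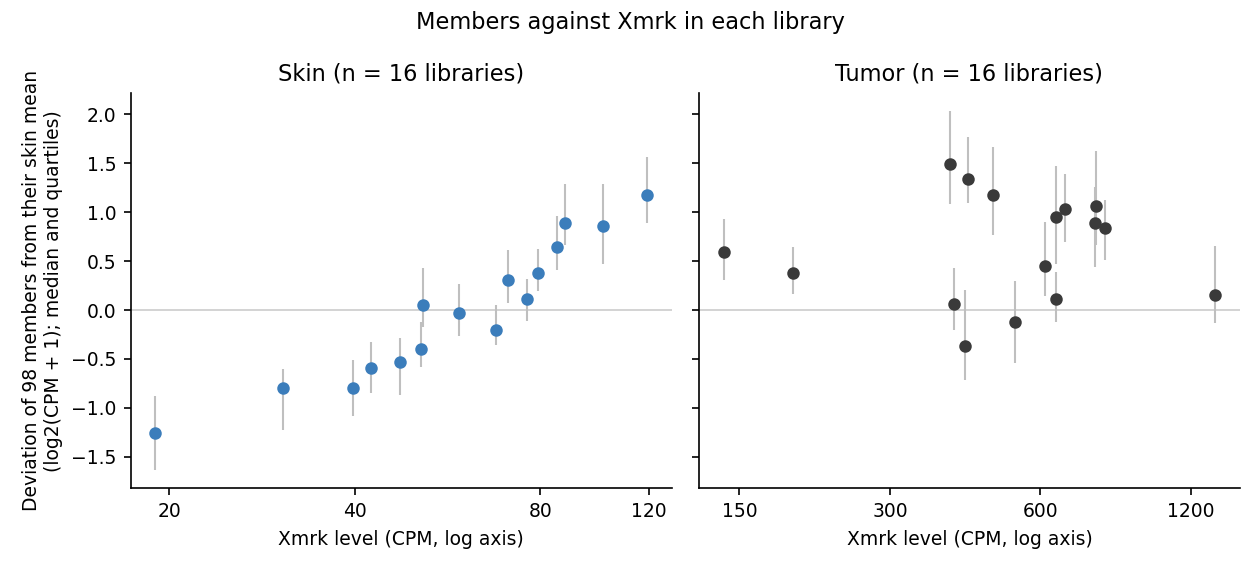
Deviation of the 98 members from their skin means in log2(CPM + 1) (y axis; points are the median over members and bars the quartiles) against the Xmrk level in CPM (x axis, log) for 16 skins and 16 tumors. In skin, where the members were chosen for it, the medians climb from -1.25 to 1.17 with Xmrk. In tumor they scatter between -0.37 and 1.49 with a rho of 0.0618.

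ENSXMAT00000008846 and ENSXMAT00000008852 kept their relation to Xmrk in the tumors. Whether these rows share reads with Xmrk was not tested, so the values that follow cannot tell tracking from shared reads. Their slopes were 0.83 (SE 0.11) and 0.85 (SE 0.11), each with an adjusted p of 0.00200 in edgeR. Spearman correlations over 16 tumors were 0.971 and 0.968, with a permutation p of 1e-05 for each, the smallest that 100000 permutations can give, and an adjusted p of 0.0316 over all tested rows, of which 0.171% passed. Pearson's r of log2 CPM was 0.996 for both (permutation test, adjusted p = 0.00879). The share of all rows passing by Pearson's r is not given here. Without the 2 tumors farthest from the median of Xmrk on the log2 scale, 11935d and 11935e, r was 0.991 and 0.990. The edgeR call needed those 2 tumors: without them the slopes were 0.80 and 0.80 with an adjusted p of 0.493. With title number as a covariate they were 0.81 and 0.82 with an adjusted p of 0.11. Within the 8 tumors of 11949 rho was 0.976 for both, the slopes were 0.76 and 0.76, and the adjusted p in edgeR was 1. In each of these reduced fits 0% of all tested rows passed as positive in edgeR. The lost calls therefore do not set the pair apart from other rows.

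A few of the 98 leaned one way, and none passed in edgeR or by Spearman's rho. ENSXMAT00000007047 had the highest rho, 0.653 (permutation p = 0.00735, adjusted p = 0.313), and a slope of 0.46 (SE 0.14, adjusted p = 0.161 in edgeR). Its Pearson's r was 0.751, with an adjusted permutation p of 0.0498, but r was 0.476 without the tumors of 11935d and 11935e, so that relation rests largely on them. The share of all rows passing this Pearson test is not given here, so that call is not set against a background. ENSXMAT00000014128 had a slope of 0.61 (SE 0.24, adjusted p = 0.379 in edgeR), on 2.46 to 32.2 CPM. The lowest rho was that of ENSXMAT00000018324, -0.538, with a slope of -0.47 (SE 0.13, adjusted p = 0.120 in edgeR). It ran from 25.1 CPM in the tumor of 11949h through 40.1 to 72.3 CPM, so its lowest level was in the tumor with the most Xmrk. DESeq2 called ENSXMAT00000007047 (adjusted p = 0.0171) and ENSXMAT00000018324 (adjusted p = 0.0192). The negative slopes of ENSXMAT00000001408 (-0.59), ENSXMAT00000001437 (-0.41) and ENSXMAT00000001913 (-0.47) had adjusted p of 0.397, 0.517 and 0.531 in edgeR.

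The members remained correlated with each other in tumors. Over the same 4753 pairs of the 98, rho in tumor had a median of 0.632, and 4715 pairs were above 0. The range was -0.303 to 0.991, and the median over all pairs of rows was 0.0645. For 14 fish with both tissues, the skins had been used to choose the members, and rows in general keep their order by fish. The correlation in tumors is therefore not independent of that choice. How much of it the choice accounts for was not tested. The tumor of 11949c was the highest of the 16 for 42 of the 100 members and that of 11963a for 24. The tumor of 11949l was the lowest for 54 and that of 11963g for 27. In these tumors the 100 most abundant rows held 47.0% and 42.5% of the counts, beside a tumor median of 27.3%. The part of that share in the lowest levels was not tested. The fish 11949l and 11963a had also been at the ends of the range in skin. From the lowest to the highest tumor the 98 spanned 2.30-fold to 65.0-fold, with a median of 5.46-fold.

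The order of the tumors was closer to the order of the fish in skin. Over the 14 fish with both tissues, the median deviation of the 98 in tumor had a rho of 0.824 with that in skin, and 0.727 with the Xmrk level in the skin. Neither value is independent of the choice of members, which used the skins of these same fish. By member, the skin level and the tumor level of the same fish had a rho of 0.174 to 0.947 with a median of 0.745. Rows in general also kept their order by fish, with a median rho of 0.670, so the members were not far from the rest in this. ENSXMAT00000003794 had 0.899 and ENSXMAT00000005704 had 0.903. ENSXMAT00000008846 and ENSXMAT00000008852, like Xmrk, did not keep the order, with 0.0462 and -0.0110.

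The tumor level of each member was therefore set against the Xmrk level in the skin of the same fish, a comparison added after the data had been seen. The rho was above 0 in 100 of 100 members, from 0.0022 to 0.886 with a median of 0.633, and 72 reached 0.5. Over the rows at 5 CPM or more the median was 0.0901, and 10.9% reached 0.5. Within the 7 fish of 11949 the members' median was 0.679 (0.214 over the rows), and within the other 7 fish 0.696 (0.0714). Without the 2 fish farthest in CPM from the median of skin Xmrk it was 0.472 (-0.0210). In edgeR no member passed the adjusted threshold, nor did any of 15745 rows (background 0%). At an unadjusted p under 0.05, 51 members passed, all with a positive slope, against 5.63% of all tested rows and 6.2% of those at 5 CPM or more with a positive slope. DESeq2 called 10 members at an adjusted p under 0.05, all positive, against a background of 0.455% of all tested rows and 0.492% of those at 5 CPM or more. The median slope was 0.39 per doubling of skin Xmrk, with 95 of 100 above 0, beside 0.0056 over the rows at 5 CPM or more. Since the members were chosen on the skins of these same fish, whose rows keep their order between tissues, the excess over the background is not independent of that choice, and how much of it the choice accounts for was not tested.

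**Figure D5:**
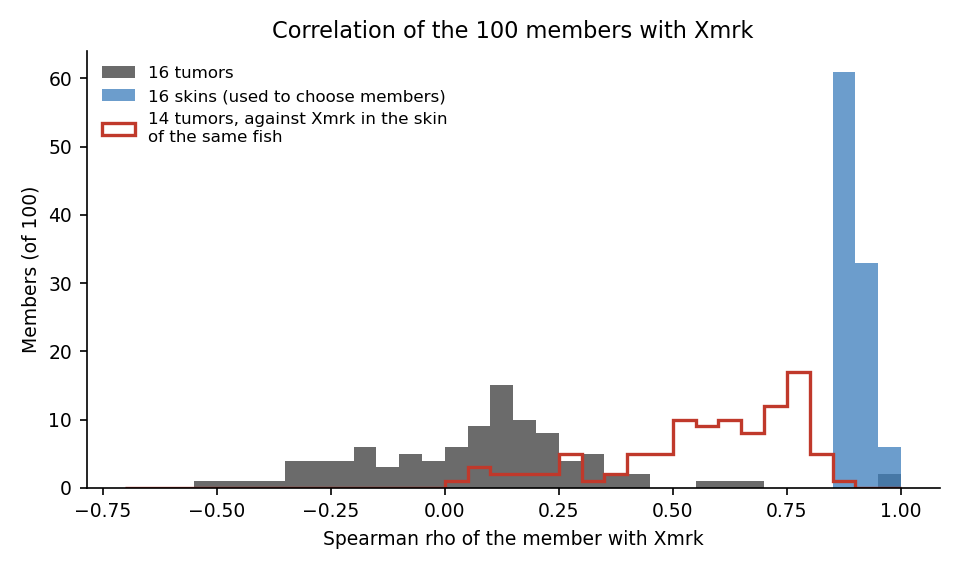
Number of members (y axis) by Spearman rho with Xmrk (x axis) over 16 skins (used to choose them), over 16 tumors, and for tumor levels against Xmrk in the skin of the same fish (14 fish). The medians are 0.894, 0.103 and 0.633, and the 2 tumor values near 0.97 are ENSXMAT00000008846 and ENSXMAT00000008852.

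The 30 rows with a gene symbol could not become members. Of these, 18 had a mean skin level of at least 5 CPM, and none reached the rho of the 100th member. CSNK1A1, a casein kinase that acts in Wnt and circadian signalling, came closest at 0.753. It was followed by CALR3_1of2, a copy of a calreticulin gene, at 0.747 and AP1M1, a clathrin adaptor subunit, at 0.738. These values had adjusted permutation p of 0.0272, 0.0280 and 0.0337 over 11890 rows, with Pearson's r of 0.736, 0.751 and 0.686. The share of the 11890 rows passing that test is not given here, so they are not set against a background. The lowest of the 18 was OXR1 at -0.538 (adjusted permutation p = 0.166). In tumors the rho of CSNK1A1, CALR3_1of2 and AP1M1 was 0.259, -0.229 and 0.356, and none of the 3 passed the slope fit in edgeR (adjusted p from 0.588 to 0.943).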

How the data were processed

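RNA from skin and melanoma was sequenced, and the authors deposited a table of raw counts per transcript, with 1 column per library. GSNAP is the only tool named in the submitters' processing notes. The annotation, the strand setting and the treatment of reads with several matches were not given in these sources. Columns were matched to titles by name, and the tumor column without a title entered comparisons by tissue only. Members were ranked on CPM by column sums. The members and the lists were chosen with earlier results of these data known. Differences and slopes were fitted to the counts with edgeR 4.0.16 (R 4.3.3; quasi-likelihood test, TMM factors, filterByExpr, Benjamini-Hochberg threshold 0.05), and SE is the log2 change divided by the square root of F. DESeq2 1.42.0, RLE factors, no filter, and subsets of libraries were alternatives. Correlation tests used 100000 two-sided permutations (Pearson's r on log2(CPM + 1)). Skin and tumor columns whose titles name the same fish were paired (14 fish), and their deviations from the tissue means correlated at 0.417 to 0.787. The tumor column without a title carries the number and letter of the skin of 11960b. The tumor title left over reads otherwise, so that column was not paired. No libraries were duplicates (lowest chi-square per degree of freedom 33.3). The fit of tumor against skin without a block and that of the slope on tumor Xmrk were tested on simulated data, with the outcome not given here. Counting error alone is covered where depth is given. Besides Xmrk, the transcripts named in the text were the 10 members highest by rho, the rows at the boundary, the 5 highest and lowest called fold changes, the 5 slopes of smallest p in each direction and the 5 most abundant, with near copies and symbols added.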

Additional observations from a re-analysis of the deposited data

Results flagged for a closer look

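Within the 8 tumors of 11949, a library stood far from the others in each of 6 measures, 3 libraries in all. In the tumor of 11949h Xmrk was at 1343 CPM, with the next tumor at 809 CPM. ENSXMAT00000008846 was at 662 CPM there (next 384 CPM) and ENSXMAT00000008852 at 694 CPM (next 406 CPM). In the tumor of 11949c ENSXMAT00000003794 was at 102 CPM (next 50.4 CPM) and ENSXMAT00000001913 at 207 CPM (next 109 CPM). The total count of the tumor of 11949f was 2578877, and the next was 4938279. With 56 groups searched at a level that chance passes about 1 time in 20, about 2.8 such values arise by chance. The measures were not independent, since ENSXMAT00000008846 and ENSXMAT00000008852 followed Xmrk and members correlated with each other. The 6 found therefore cannot be weighed against 2.8 as separate values.

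In 3 of the 78 comparisons of direction between title numbers, all fish of 1 number moved one way and all of the other the opposite way. Each set 3 fish of 11935 against 3 of 11963, and the difference was not tested. Over the 11872 rows at 5 CPM or more in skin, the same pattern held in 3.83% of such comparisons of 11935 with 11963 and in 1.46% over all 3 pairs of title numbers. The mean log2 ratio of tumor to skin CPM within fish for ENSXMAT00000017539 was 1.19 in 11935 and -0.28 in 11963. For ENSXMAT00000001437 it was 1.31 and -0.73, and for ENSXMAT00000000213 it was 0.58 and -0.42.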

How the results depend on the processing

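The list depends on how likeness to Xmrk is measured. With Pearson's r of log2(CPM + 1), 61 of the 100 members were shared; with only the 11949 skins 21; with the title-number means of the ranks removed 65. TMM-scaled CPM kept 69, and a minimum mean of 20 CPM also kept 69. Leaving out 1 skin at a time kept 73 to 94, and 55 were in every such list. Members called higher in tumor numbered 59 with the fish as a replicate block and 13 in the same paired libraries with no replicate block, beside 20 over all libraries. The share of all tested rows called higher was 23.3%, 8.4% and 11.2% in these settings. The member called lower did not pass within 11949 (0 called, against 6.8% of all tested rows, adjusted p = 0.239 in edgeR). The 2 calls of a positive slope on tumor Xmrk became 0 within 11949. They also became 0 with title number as a covariate (adjusted p = 0.11 for both in edgeR). The same held without the 2 tumors lowest in Xmrk, which are also the 2 farthest from its median on the log2 scale. In each of these settings 0% of all tested rows passed as positive. The slopes themselves stayed between 0.76 and 0.82, beside 0.83 and 0.85. DESeq2 gave 1 negative slope in place of 0, and 10 positive slopes on skin Xmrk in place of 0. The slope of ENSXMAT00000012551 turned from 0.50 to -0.0057 within 11949 and -0.075 without those 2 tumors, with an adjusted p of 1 in edgeR both times. The cause was not tested, apart from the fewer samples of a subset. The other 73 alternatives to a count or median stayed within the range allowed for it. Added after seeing the data were, for tumor against skin, leaving out the tumor lacking a title and leaving out the pair near Xmrk; for the list, keeping all tied rows; for the slope on tumor Xmrk, leaving out the 2 lowest tumors; and every setting for the slope on skin Xmrk. Depth limits the low members, with counts down to 4 in skin and 2 in tumor.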
